A study of Mus musculus with 8 samples.

Results

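The genes described are 10 cytokine receptor genes through which blood progenitors receive growth and survival signals: Il7r, Il2rg, Crlf2, Flt3, Kit, Csf1r, Csf2ra, Il3ra, Csf2rb and Csf3r. They were taken by name from all non-control probes of the array. Of these genes, 8 carry their current symbol in the files, Crlf2 (listed as Tpte2) was matched by its RefSeq accession, and Csf2rb (listed as Csf2rb1) by RefSeq accession for its 2 dimmer probes and by RefSeq's synonym for the brightest. They have 16 probes of 41174 on the array and are 10 of 27573 features. A gene counted as measured if 1 RNA of some comparison lay well above background on each of its arrays, which held for 9 of the 10 and for 19986 features of the whole array. Csf3r was in neither RNA well above background in any comparison.

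The cells were mouse pro/preB cells from the bone marrow of Pax5-/- mice. Pax5 is the transcription factor needed for commitment to the B lineage. The cultures were kept with IL-7 over a feeder layer of irradiated OP9 stroma. Clone 4, a single clone, carried a human Pax5 transgene (huPax5) controlled by doxycycline through the transactivator rtTA, both brought in by retroviral vectors, and received doxycycline at 10, 300 or 1000 ng/ml. The Pax5sz2 cells had rtTA but no huPax5, and their label names doxycycline treatment at an unstated dose. Each of these 4 RNAs was hybridised on Agilent 2-colour arrays against RNA labelled as clone 4 huPax5 without doxycycline (0 ng/ml), once in each dye orientation, on 8 arrays in all. All groups share the absence of mouse Pax5 and the IL-7 and OP9 culture. The doses bear on how expression depends on the amount of inducer. For Pax5sz2, effects of the transgene, of doxycycline and of the cells themselves cannot be told apart.

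A comparison rests on 1 RNA sample on 2 technical arrays, so a single comparison has no p-value and every ± is the SD of the 2 arrays. The number of arrays limits the precision. Values are log2 ratios of the named RNA over clone 4 without doxycycline, or log2 channel levels after normalization. The array with the named RNA in Cy5 is given first and that with the named RNA in Cy3 second. A gene passed the size rule if it differed at least 2-fold in the same direction on both arrays, and it is read from its brightest probe. As the RNA is from bulk cultures, fewer cells of a type and less RNA per cell cannot be told apart.

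For the pair labelled 1000 ng/ml, the direction of the ratios is unsettled. Its slides had been rehybridised, its scans came earlier and its scanner protocol was older than that of the 6 remaining arrays, and this batch cannot be told apart from the dose. Taken over all probes, the correlation with the 300 ng/ml array of matching dye was negative, with r = -0.359 where Cy5 held the named RNA and r = -0.46 where Cy3 did. These correlations run across genes, and genes are no independent replicates. Values of the pair are given as labelled, and each has the opposite sign if the pair is turned. The share of spots called well above background was 40.4% to 45.1% per channel in this pair and 59.5% to 75.5% elsewhere, but the call used a multiplier of 2.6 here and of 13 elsewhere. The log2 ratio of the mouse Pax5 coding probe averaged -0.11 with 10 ng/ml, 0.23 with 300 ng/ml, -0.45 with 1000 ng/ml (named RNA not well above background, here called dim, on both arrays) and -0.27 in Pax5sz2. It may read neither the human transgene nor the deleted mouse gene, and so does not check the labels. Another Pax5 probe, which reads a complementary DNA clone, averaged 2.66 with 10 ng/ml, 2.36 with 300 ng/ml and 3.02 in Pax5sz2, which has no huPax5, and was dim in both RNAs with 1000 ng/ml. Of the 10 B cell precursor markers, Igll1 and Vpreb1, the surrogate light chain genes, were dim in both RNAs at 300 ng/ml, and Igll1 also at 1000 ng/ml. In Pax5sz2 both were far higher than in clone 4 without doxycycline, with 8.55 and 7.22 for Vpreb1 and 5.97 and 5.34 for Igll1. The other detected Igll1 probe averaged 0.98 there. In Pax5sz2, 6 of the 10 markers were below 0 on both arrays and 4 above, with a median of -0.37. Past the size and lower were Blnk, with -3.43 and -3.39, and Ebf1, with -1.81 and -1.34 and another probe averaging -0.25. These markers were named after their values were seen. The whole list is counted below.

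Receptors of this group fall into a few families. IL-7 signals through the IL-7 receptor alpha chain (Il7r) paired with the common gamma chain (Il2rg), which IL-2, IL-4, IL-9, IL-15 and IL-21 receptors also use, and drives growth and survival of B cell precursors. Il7r pairs instead with Crlf2 to form the receptor for TSLP. Flt3, Kit and Csf1r are receptor tyrosine kinases for FLT3 ligand, stem cell factor and CSF1. Csf2ra and Il3ra are the alpha chains that bind GM-CSF and IL-3, Csf2rb is their shared signalling chain, and Csf3r is the receptor of G-CSF on granulocytes and their precursors.

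As a group, the 9 measured receptors sat below clone 4 without doxycycline at 300 ng/ml and mostly above it in the pair labelled 1000 ng/ml. With 10 ng/ml, 6 of 9 were below 0 on both arrays and 1 above, where 36% and 38.6% of all tested features were. Of the same 9, 8 were below 0 on both arrays with 300 ng/ml and 0 above, against 35% and 35.8% of all features. In the 1000 ng/ml pair 1 was below and 7 above, against 30.5% and 33.7%. In Pax5sz2, 5 were below and 3 above, against 35.2% and 41.9%. The receptors' median ratio was -0.21 with 10 ng/ml, -0.77 with 300 ng/ml, 0.44 with 1000 ng/ml and -0.39 in Pax5sz2, and the median of all tested features lay between 0 and 0.03. Centring each array on its median in place of loess left the median at -0.77 for 300 ng/ml and 0.44 for 1000 ng/ml, but moved it to -0.11 at 10 ng/ml and -0.12 in Pax5sz2. With that centring 0 of 9 were below 0 on both arrays at 10 ng/ml and in Pax5sz2, and 4 were above in Pax5sz2. It left 2 above 0 on both arrays and 0 below at 1000 ng/ml, and 7 below and 0 above at 300 ng/ml.

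Few receptors passed the size rule. None did at 10 ng/ml, where 1.88% of all tested features did, 0.605% higher and 1.27% lower. In the 300 ng/ml RNA 1 of 9 was lower, Csf2rb, against 2.36% of all features, and 0 were higher, against 1.32%, with 3.68% past the size in either direction. In the 1000 ng/ml RNA 1 of 9 was higher, Flt3, against 1.94% of all features, and 0 were lower, against 0.635%, with 2.57% in either direction. In Pax5sz2 0 of 9 passed, against 2.34% higher, 2.82% lower and 5.16% in either direction. A count of 1 in 9 is too small to be read against those shares.

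**Figure D1:**
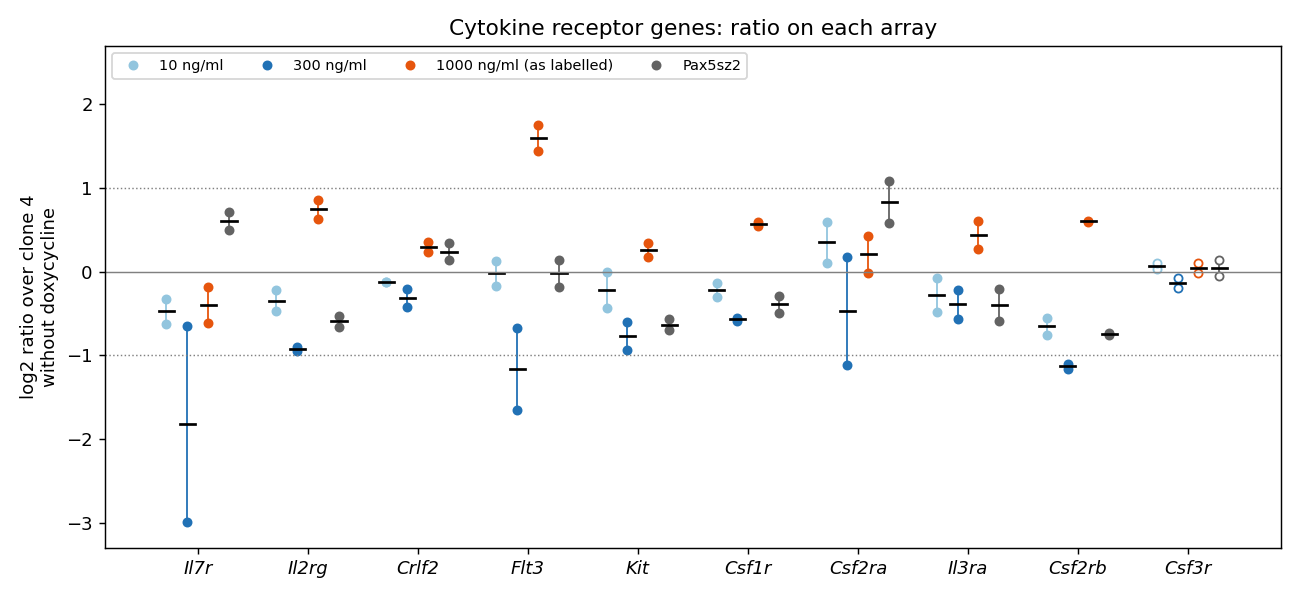
Log2 ratio (y axis) over clone 4 without doxycycline of each receptor gene (x axis) on each array. Points are the 2 dye-swapped arrays joined by a line, black bars their mean, dotted lines the 2-fold size in either direction, and open points a gene not well above background. At 300 ng/ml (dark blue) the means of all 9 measured genes lie below 0, and the Il7r arrays lie far apart.

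Under loess, Il7r was lower than in clone 4 without doxycycline on every array of the 3 doses. With median centring its ratios were 0.28 and -0.66 at 10 ng/ml, -2.31 and -1.14 at 300 ng/ml, and 0.26 and -1.29 at 1000 ng/ml. The arrays thus lay on either side of 0 at 10 and 1000 ng/ml. The values that follow are under loess. Its levels were 12.04 and 12.19 at 10 ng/ml, against 12.66 and 12.52 in the control RNA of the same arrays, giving ratios of -0.62 and -0.33. In the 300 ng/ml RNA the levels were 9.63 and 11.93, against 12.62 and 12.58 in its control, giving ratios of -2.99 and -0.65. The control levels were close together, and the 2 readings of the 300 ng/ml RNA lay far apart. The mean of -1.82 ± 1.7 therefore rests on the array with the named RNA in Cy5, without which it is -0.65. The scanner's processed signals gave -1.49 and -0.93 on the same arrays, a mean of -1.21, so the size of this gap depends on the processing. The 1000 ng/ml ratios were -0.61 and -0.18, which made Il7r the 1 receptor below 0 on both arrays of that pair. In Pax5sz2 the levels were 13.04 and 13.17, against 12.54 and 12.46, a mean ratio of 0.61 ± 0.15, or 1.53-fold higher. The groups did not overlap on any of these pairs of arrays.

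The 3 Il7r probes did not all give the same picture. On the mm8 build the brightest lies at chr15:9450946-9451005, the middle one at chr15:9455913-9455972 and the dimmest at chr15:9457540-9457599, all on the minus strand. The middle probe had ratios of -0.56 and -0.26 at 10 ng/ml, -0.86 and -0.86 at 300 ng/ml, and -0.51 and -0.18 at 1000 ng/ml. The dimmest probe gave -0.61 and -0.47 at 10 ng/ml, -0.59 and -0.53 at 300 ng/ml, and -0.08 and -0.06 at 1000 ng/ml. Under loess all 3 probes were thus below 0 at each dose, and the arrays of the 2 dimmer probes lay close together at 300 ng/ml. In Pax5sz2 the middle probe gave -0.23 and -0.10 and the dimmest -0.44 and -0.36, opposite in sign to the brightest, so the direction of Il7r in Pax5sz2 depends on the probe. A complementary DNA clone, AK089361, that the files describe as Il7r without giving that name, averaged -0.80, -0.67 and -0.40 at 10, 300 and 1000 ng/ml and -0.10 in Pax5sz2. It was looked up after the other values were seen.

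The common gamma chain gene Il2rg, with its probe at chrX:97468402-97468915 (mm8, minus strand), was lower under loess than in clone 4 without doxycycline on both arrays of 3 comparisons. Its levels were 9.39 and 9.47 at 300 ng/ml, against 10.29 and 10.42 in clone 4 without doxycycline, with ratios of -0.90 and -0.95. That is a mean of -0.92 ± 0.035, or 1.9-fold lower, just inside the 2-fold line. The ratios were -0.47 and -0.22 at 10 ng/ml, 0.86 and 0.63 at 1000 ng/ml, and -0.66 and -0.53 in Pax5sz2. Under loess the 1000 ng/ml RNA was thus on the other side of its control from the remaining RNAs. Its levels were 10.49 and 10.45, against 9.63 and 9.82. With median centring the Il2rg ratios were 0.24 and -0.53 at 10 ng/ml, 1.72 and -0.28 at 1000 ng/ml, and 0.09 and -0.65 in Pax5sz2. In each of these the arrays lay on either side of 0. At 300 ng/ml both stayed below 0, with -0.36 and -1.46.

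Crlf2, the TSLP receptor chain that pairs with Il7r, had the smallest ratios of the 3 genes. Its ratios were -0.12 and -0.12 at 10 ng/ml, -0.42 and -0.21 at 300 ng/ml, 0.35 and 0.23 at 1000 ng/ml, and 0.34 and 0.14 in Pax5sz2. Under loess every pair of arrays had 1 sign, and the mean furthest from 0 was 1.25-fold lower, at 300 ng/ml. With median centring the means were 0.21, -0.10 and 0.13 at 10, 300 and 1000 ng/ml and 0.74 in Pax5sz2, so that at 10 ng/ml Crlf2 lay on the other side of 0.

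The sequence before the start of the genes is shown for the chains of the IL-7 receptor. Their mean ratios were below 0 at 10 and 300 ng/ml, as were those of every other measured receptor but Csf2ra. The 250 bases upstream of each start, from RefSeq on GRCm38.p6, another build than that of the probes, are at chr15:9529877-9530126 for Il7r and chrX:101268256-101268505 for Il2rg, both on the minus strand. Capitals mark the letters searched on both strands: GAGGAA (PU.1 type), CCCNNGGG (EBF type), TTCNNNGAA (STAT type) and TGTGGT (RUNX type).
Il7r: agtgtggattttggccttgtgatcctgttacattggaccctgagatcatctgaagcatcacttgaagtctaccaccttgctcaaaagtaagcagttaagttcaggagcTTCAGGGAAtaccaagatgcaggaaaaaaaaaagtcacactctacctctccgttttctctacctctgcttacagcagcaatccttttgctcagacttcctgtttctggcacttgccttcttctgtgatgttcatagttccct
Il2rg: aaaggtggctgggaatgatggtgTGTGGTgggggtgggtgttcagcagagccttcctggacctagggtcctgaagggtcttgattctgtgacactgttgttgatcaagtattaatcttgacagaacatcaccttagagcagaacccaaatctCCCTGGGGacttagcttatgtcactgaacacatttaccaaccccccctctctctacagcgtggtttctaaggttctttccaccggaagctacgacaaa
The Il7r stretch holds the STAT letters once, at position -142 counted from the start, and the Il2rg stretch holds the RUNX letters at -227 and the EBF letters at -98. Among 27025 upstream stretches of the same length, 7.18% hold the STAT letters, 14.2% the RUNX letters, 11.7% the EBF letters and 23.1% the PU.1 letters. Entries were found for 8 of the 10 genes: 4 hold PU.1 letters, 3 EBF letters, 2 RUNX letters and 1 STAT letters. A match is a description of the letters and not of a bound site.

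**Figure D2:**
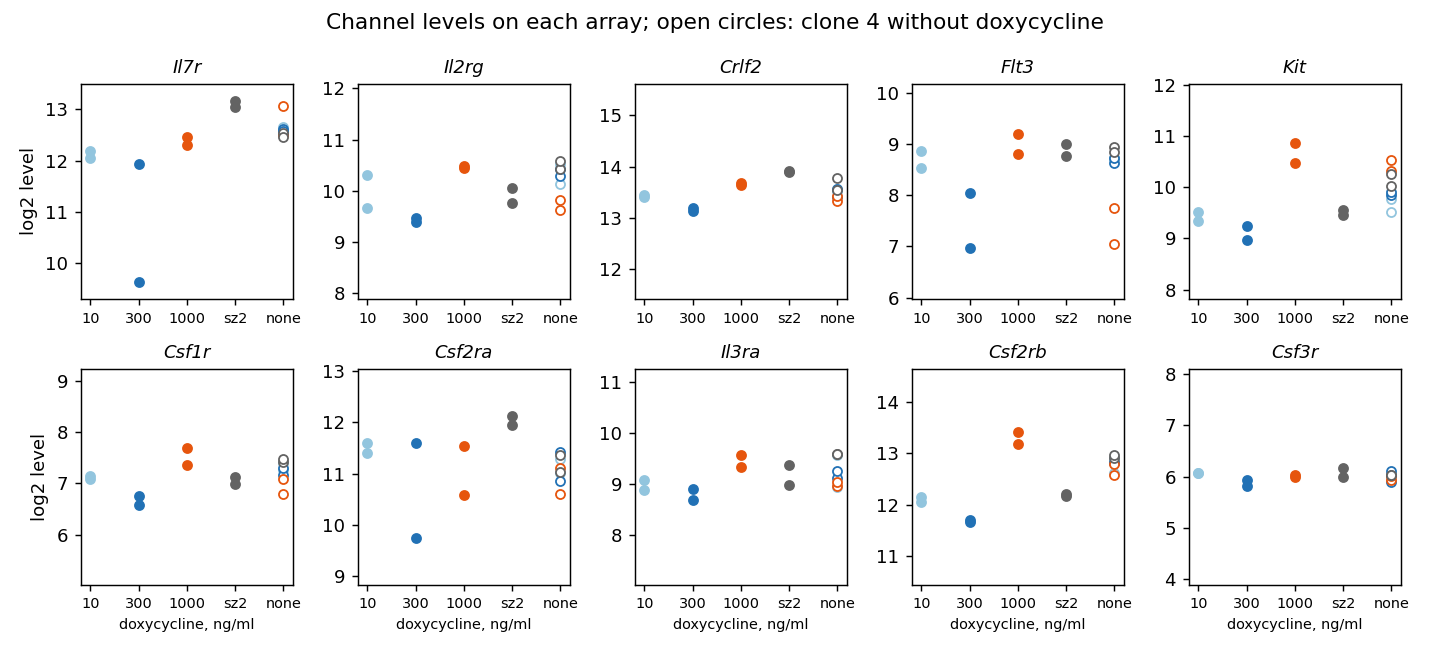
Log2 channel level (y axis) of each receptor gene in each RNA (x axis, doxycycline in ng/ml, sz2 for Pax5sz2 and none for clone 4 without doxycycline). Filled points are the named RNA on its 2 arrays, and open points the control RNA on all 8 arrays, in the colour of the RNA it was hybridised with. The Flt3 control levels of the 1000 ng/ml arrays (open orange) lie at 7.75 and 7.05, below those of the other 6 arrays.

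Flt3, the receptor tyrosine kinase of early lymphoid and dendritic progenitors, had the highest ratio among the receptors. Its levels were 9.19 and 8.81 in the 1000 ng/ml RNA, against 7.75 and 7.05 in clone 4 without doxycycline on the same arrays. The ratios of 1.44 and 1.76 average 1.60 ± 0.23, or 3.03-fold higher, and -1.60 if the pair is turned. With the scanner's processed signals the mean was 2.90 as labelled, so the size depends on the processing. The control was well above background on 1 of the 2 arrays. In the 300 ng/ml RNA the levels were 6.96 and 8.05, against 8.62 and 8.72 in its control, with ratios of -1.65 and -0.67. The mean of -1.16 ± 0.70 is below 0 on both arrays, and only the array with the named RNA in Cy5 passed 2-fold. The ratios were -0.17 and 0.13 at 10 ng/ml and -0.18 and 0.14 in Pax5sz2, so in both the arrays lay on either side of 0.

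The control RNA itself read differently for Flt3 in the 1000 ng/ml pair. Its mean level there was 7.40, while on the other arrays the control means ran between 8.67 and 8.90. The RNA labelled 1000 ng/ml had 9.00, near those other control levels, and the 300 ng/ml RNA had 7.51, near the control level in the 1000 ng/ml pair. Il2rg had a like pattern, with means of 10.47 in the 1000 ng/ml RNA, 9.73 in its control and 9.43 in the 300 ng/ml RNA. The Il2rg control means ran between 10.33 and 10.51 on the other arrays. Crlf2, Il3ra and Csf1r had this pattern over smaller distances. The Csf2ra means in the 1000 ng/ml pair differed by less than the SDs of their arrays. Csf2rb, Kit and Il7r did not share this pattern. The Csf2rb means were 13.30 in the 1000 ng/ml RNA and 12.69 in its control, with 12.75 to 12.93 in the control of the other arrays. The Kit means were 10.67 in the 1000 ng/ml RNA and 10.42 in its control, with 9.64 to 10.14 in the control of the other arrays. From low to high, the Flt3 means were 7.51 with 300 ng/ml, 8.69 with 10 ng/ml, 8.88 in Pax5sz2 and 9.00 with 1000 ng/ml. Among the last 3, neighbours in this order did not differ beyond the SDs of 0.23, 0.16 and 0.27 of their arrays. Levels of different array pairs share a scale only through the normalization.

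Kit, the receptor of stem cell factor on progenitors and mast cells, was lower at 300 ng/ml and in Pax5sz2 than in clone 4 without doxycycline. Its levels were 9.24 and 8.97 at 300 ng/ml, against 9.84 and 9.90 in clone 4 without doxycycline, a mean ratio of -0.77 ± 0.24, or 1.7-fold lower. In Pax5sz2 they were 9.45 and 9.55, against 10.03 and 10.26, a mean ratio of -0.64 ± 0.092, or 1.56-fold lower. The ratios were -0.43 and 0.00 at 10 ng/ml, and 0.34 and 0.17 at 1000 ng/ml. Under loess the 300 ng/ml and Pax5sz2 RNAs were below their controls on both arrays without overlap, and neither passed the size. With median centring the Pax5sz2 ratios were 0.14 and -0.83.

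The upstream stretches of Flt3 and Kit are given because both are receptor tyrosine kinases with lower ratios at 300 ng/ml, while their letters differ. They lie at chr5:147400490-147400739 on the minus strand for Flt3 and chr5:75574737-75574986 on the plus strand for Kit (GRCm38.p6), with capitals as above.
Flt3: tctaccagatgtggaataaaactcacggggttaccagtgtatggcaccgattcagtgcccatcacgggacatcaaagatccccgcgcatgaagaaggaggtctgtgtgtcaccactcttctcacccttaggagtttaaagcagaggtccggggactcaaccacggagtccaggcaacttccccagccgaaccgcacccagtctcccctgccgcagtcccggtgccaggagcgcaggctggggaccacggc
Kit: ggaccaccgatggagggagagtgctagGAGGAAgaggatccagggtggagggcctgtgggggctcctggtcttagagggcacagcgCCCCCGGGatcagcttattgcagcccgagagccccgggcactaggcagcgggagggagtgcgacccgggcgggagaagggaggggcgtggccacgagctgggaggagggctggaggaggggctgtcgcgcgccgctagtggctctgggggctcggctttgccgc
The Flt3 stretch holds none of the 4 sets of letters, and the Kit stretch holds the PU.1 letters at -223 and the EBF letters at -164. The E-box letters CANNTG, which 66.0% of the 27025 stretches hold, are in 3 of the 8 receptor stretches, Flt3 among them and Kit not, and are left in lower case.

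Csf1r, the macrophage colony-stimulating factor receptor and a marker of monocytes, was near the detection level in these cells. Its brightest probe had levels of 6.57 and 6.76 at 300 ng/ml, against 7.16 and 7.30 in clone 4 without doxycycline, with ratios of -0.59 and -0.55. The ratios were -0.13 and -0.30 at 10 ng/ml and -0.29 and -0.49 in Pax5sz2. In the 1000 ng/ml pair the levels were 7.68 and 7.35, against 7.08 and 6.80 in a control that was dim on both arrays, so the ratio is a bound against the detection level of those arrays: the named RNA was at least 1.23-fold higher. The middle probe was on the same side of 0 as the brightest in all 4 comparisons, though dim in both RNAs at 1000 ng/ml. The dimmest probe had means between -0.07 and 0.06 and was not well above background on both arrays of any RNA. With the scanner's processed signals the brightest probe's mean was -1.31 at 300 ng/ml and 1.64 at 1000 ng/ml, further from 0 than the loess means of -0.57 and 0.58.

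The shared chain of the GM-CSF and IL-3 receptors, Csf2rb, was the receptor past the size at 300 ng/ml. Its brightest probe reads a complementary DNA clone at chr15:78177993-78178052 (mm8, plus strand). Its levels were 11.67 and 11.71 at 300 ng/ml, against 12.83 and 12.81 in clone 4 without doxycycline. The ratios of -1.16 and -1.10 average -1.13 ± 0.048, or 2.19-fold lower. The ratios were -0.55 and -0.76 at 10 ng/ml, 0.61 and 0.60 at 1000 ng/ml, and -0.73 and -0.76 in Pax5sz2. Under loess the SD of the 2 arrays was at most 0.15 in each comparison, and the RNAs did not overlap with their controls. With median centring the ratios were -0.37 and -1.58 at 300 ng/ml, and in each other comparison the 2 arrays lay on either side of 0. The scanner's processed signals gave -0.79 at 300 ng/ml, under the 2-fold size.

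The 2 RefSeq probes of Csf2rb, both dimmer, had ratios nearer to 0. The middle probe, at chr15:78173681-78173943, gave 0.09 and 0.19 at 300 ng/ml, opposite in sign to the brightest, and its mean ratios over the 4 comparisons ran between -0.07 and 0.14. The dimmest, at chr15:78175465-78175524, gave -0.51 and -0.37 at 300 ng/ml and -0.51 and -0.57 in Pax5sz2. Its mean level was 6.46 in the 300 ng/ml RNA, against 6.90 in clone 4 without doxycycline. Mice carry a closely related copy, Csf2rb2, that pairs with the IL-3 receptor alpha chain alone. Its probe had ratios of -0.68 and -0.85 at 10 ng/ml, -1.13 and -1.33 at 300 ng/ml, 1.00 and 0.83 at 1000 ng/ml, and -1.01 and -1.07 in Pax5sz2. Whether the brightest Csf2rb probe also reads Csf2rb2 was not tested, so the values of the 2 copies are uncertain.

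**Figure D3:**
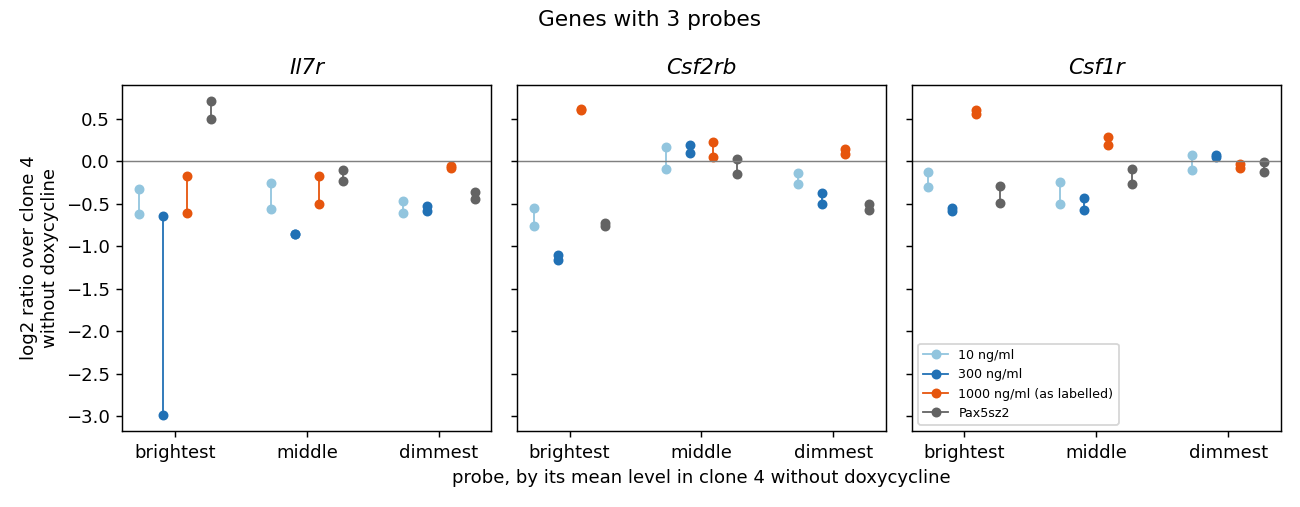
Log2 ratio over clone 4 without doxycycline (y axis) for the 3 receptor genes with 3 probes, with the probes ordered along the x axis by their mean level in clone 4 without doxycycline. Points are the 2 arrays of each comparison, joined by a line. The 3 Il7r probes lie below 0 at each dose and differ in sign in Pax5sz2, and the middle Csf2rb probe does not follow the brightest.

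Csf2ra, the GM-CSF receptor alpha chain, had no single direction. Its ratios were 0.59 and 0.11 at 10 ng/ml and 0.43 and -0.01 at 1000 ng/ml. With 300 ng/ml they were -1.11 and 0.17, from levels of 9.74 and 11.59, against 10.85 and 11.42 in clone 4 without doxycycline, so the mean of -0.47 ± 0.91 has no sign of its own. The processed signals gave 0.33 and 0.20 on the same arrays. Pax5sz2 was higher on both arrays, with levels of 12.13 and 11.95, against 11.04 and 11.37, a mean ratio of 0.83 ± 0.36, or 1.78-fold higher. That placed Csf2ra on the other side of its control from Csf2rb in Pax5sz2.

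Il3ra, the IL-3 receptor alpha chain, had small ratios with 1 sign in each comparison under loess. They were -0.07 and -0.48 at 10 ng/ml, -0.22 and -0.56 at 300 ng/ml, 0.61 and 0.27 at 1000 ng/ml, and -0.21 and -0.59 in Pax5sz2. The largest mean was 0.44 ± 0.24, or 1.36-fold higher, at 1000 ng/ml. With median centring the Il3ra arrays lay on either side of 0 in each comparison. The ratios were then 0.56 and -0.77 at 10 ng/ml and 0.24 and -1.05 at 300 ng/ml. They were 1.38 and -0.50 at 1000 ng/ml and 0.48 and -0.73 in Pax5sz2. Csf3r had levels between 5.82 and 6.17 in the named RNAs, against 5.89 and 6.12 as the lowest and highest in clone 4 without doxycycline, and was not well above background on any array.

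Tests over the doses called none of the receptors. The mean over the 3 doses was tested against 0 with limma on 1 value per dose, with Benjamini-Hochberg adjustment over 19986 features and a threshold of 0.05. It called 0 features of the array (0% higher and 0% lower, smallest adjusted p 0.701, and 1183 at an unadjusted p under 0.05) and 0 of the 9 receptors. With the pair as labelled, Il7r had the mean effect furthest from 0 among the receptors, a value that includes the single array at -2.99, at -0.90 ± 0.36 (SE), adjusted p = 0.701. Without the 1000 ng/ml pair, the limma fit called 5.57% of features higher and 8.53% lower. It called 0 of 9 receptors. At an unadjusted p under 0.05 there were 4 of 9 receptors and 7567 of 19986 features. Csf2rb was at -0.89 ± 0.15 (SE) with an adjusted p of 0.0561 in that fit, and Il3ra at -0.33 ± 0.069 with an adjusted p of 0.0709. With the pair turned, limma called 0 features. At an unadjusted p under 0.05 there were 6 of 9 receptors and 4904 of 19986 features, and the receptors' smallest adjusted p was 0.12. Flt3 then had the effect furthest from 0, -0.93 ± 0.35 (SE) with a limma adjusted p of 0.219, and Il7r had -0.63 ± 0.48. In these tests the doses serve as replicates of each other, and the control RNA adds no spread of its own.

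The difference between Pax5sz2 and the mean of the doses was tested in the same way, with the lone Pax5sz2 sample assumed to vary like the doses. Limma called 0 features (0% higher and 0% lower, 1438 at an unadjusted p under 0.05) and 0 receptors. Il7r had the largest difference, 1.51 ± 0.72 (SE), adjusted p = 0.863, and its 2 other probes did not share the positive Pax5sz2 ratio behind it. Without the 1000 ng/ml pair 0 features were called, and Crlf2 had the smallest adjusted p of the receptors, 0.264, for a difference of 0.46 ± 0.14 (SE). With the pair turned 12 features were called, 0.055% higher and 0.005% lower, and 0 receptors.

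The genes around the receptors were read from lists of ligands, other receptors, signalling proteins and induced targets. Of 14 ligand genes 8 were measured. Il6, an inflammatory cytokine, was the only 1 past the size in any comparison, with 1.14 and 1.45 at 300 ng/ml, a mean of 1.30 ± 0.22. Kitl, the ligand of Kit, had ratios of 0.80 and 0.46 at 10 ng/ml, 0.33 and 0.68 at 300 ng/ml, and 0.75 and 0.72 in Pax5sz2, and was dim in both RNAs at 1000 ng/ml. Csf1, the ligand of Csf1r, had 0.72 and 0.87 at 300 ng/ml and -1.13 and -0.99 at 1000 ng/ml, opposite in sign to Csf1r in both. Kitl and Csf1 were named after their values were seen. Of 9 stromal feeder markers, Kitl among them, 3 were past the size and higher with 10 ng/ml, 6 with 300 ng/ml, 0 with 1000 ng/ml and 3 in Pax5sz2. The shares of all tested features were 0.605%, 1.32%, 1.94% and 2.34% in the same order. The summed log2 level of these markers ran between 15.28 and 15.58 at 300 ng/ml, against 13.64 and 14.22 in clone 4 without doxycycline. Their part in the receptor ratios was not tested.

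Of 28 other cytokine and growth factor receptors, 26 were measured, with medians of 0.05 with 10 ng/ml, -0.25 with 300 ng/ml, 0.22 with 1000 ng/ml and -0.08 in Pax5sz2. Of the 26, 3 were past the size and lower and 2 higher at 300 ng/ml, against 2.36% and 1.32% of all features. Il12rb1, a chain of the IL-12 and IL-23 receptors, had -1.69 and -1.48 with that dose, 1.90 and 2.21 at 1000 ng/ml, and -1.68 and -1.10 in Pax5sz2. Il2ra, the IL-2 receptor alpha chain, had -1.08 and -1.44 at 300 ng/ml, where its other detected probes ran between -1.02 and 0.25. It had 2.46 and 2.29 at 1000 ng/ml, with the other probes between 0.34 and 0.75. Csf2rb2, given above, was the other lower one, and also passed the size in Pax5sz2. Pdgfrb, a growth factor receptor of stromal cells and one of the feeder markers, was higher at 300 ng/ml, with 1.26 and 1.15. Ifngr1, a chain of the interferon gamma receptor, had 1.83 and 1.68 at 1000 ng/ml, where 3 of the 26 were higher and 0 lower.

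Of 29 signalling genes just below the receptors, 27 were measured, with a median of -0.24 at 300 ng/ml and 0.27 at 1000 ng/ml. Pik3r1, the regulatory subunit of PI3 kinase, had -1.29 and -1.18 at 300 ng/ml and 2.15 and 2.25 at 1000 ng/ml, and its 3 other detected probes were on the same side in both. Jak3, the kinase that binds the common gamma chain, had -0.55 and -0.78 at 10 ng/ml, -1.04 and -0.93 at 300 ng/ml, 1.08 and 0.82 at 1000 ng/ml, and -0.12 and -0.24 in Pax5sz2. Its 2 other detected probes averaged 0.03 and -0.15 at 10 ng/ml, -0.29 and -0.39 at 300 ng/ml, 0.59 and 0.92 at 1000 ng/ml, and -0.45 and -0.37 in Pax5sz2. Jak3 was named after its values were seen. Cbl, a ubiquitin ligase that acts on receptor kinases, had -1.45 and -1.09 at 300 ng/ml and -1.58 and -1.19 in Pax5sz2, while its other probe averaged 0.08 and -0.25 there. Stat3 had -2.24 and -1.40 in Pax5sz2 and 1.01 and 1.13 at 1000 ng/ml, with a second probe at -0.07 and 0.11.

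All 15 cytokine-induced targets were measured, with a median of 0.36 with 10 ng/ml, 0.28 with 300 ng/ml, 0.13 with 1000 ng/ml and -0.21 in Pax5sz2. Socs1, a feedback inhibitor of JAK kinases, was past the size at each dose, with 1.18 and 1.23 at 10 ng/ml, 1.27 and 1.16 at 300 ng/ml, and 1.13 and 1.04 at 1000 ng/ml. It had 0.56 and 0.68 in Pax5sz2. Dusp6, an ERK phosphatase, had 1.33 and 1.62 at 10 ng/ml and 1.55 and 1.80 at 300 ng/ml, but -0.98 and -1.15 at 1000 ng/ml and -0.39 and -0.42 in Pax5sz2. Spry1, an inhibitor of receptor tyrosine kinase signalling, had 1.33 and 1.30 at 10 ng/ml, 0.90 and 0.55 at 300 ng/ml, 0.98 and 0.80 at 1000 ng/ml, and 0.09 and 0.15 in Pax5sz2. Ccnd3, a cyclin needed for pre-B cell growth, had 0.27 and 0.16 at 10 ng/ml, 0.64 and 0.55 at 300 ng/ml, -1.78 and -2.46 at 1000 ng/ml, and -0.75 and -0.67 in Pax5sz2. Bcl2, a survival gene, had 1.27 and 1.44 at that dose, with its other probes at 0.40 and 0.64.

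**Figure D4:**
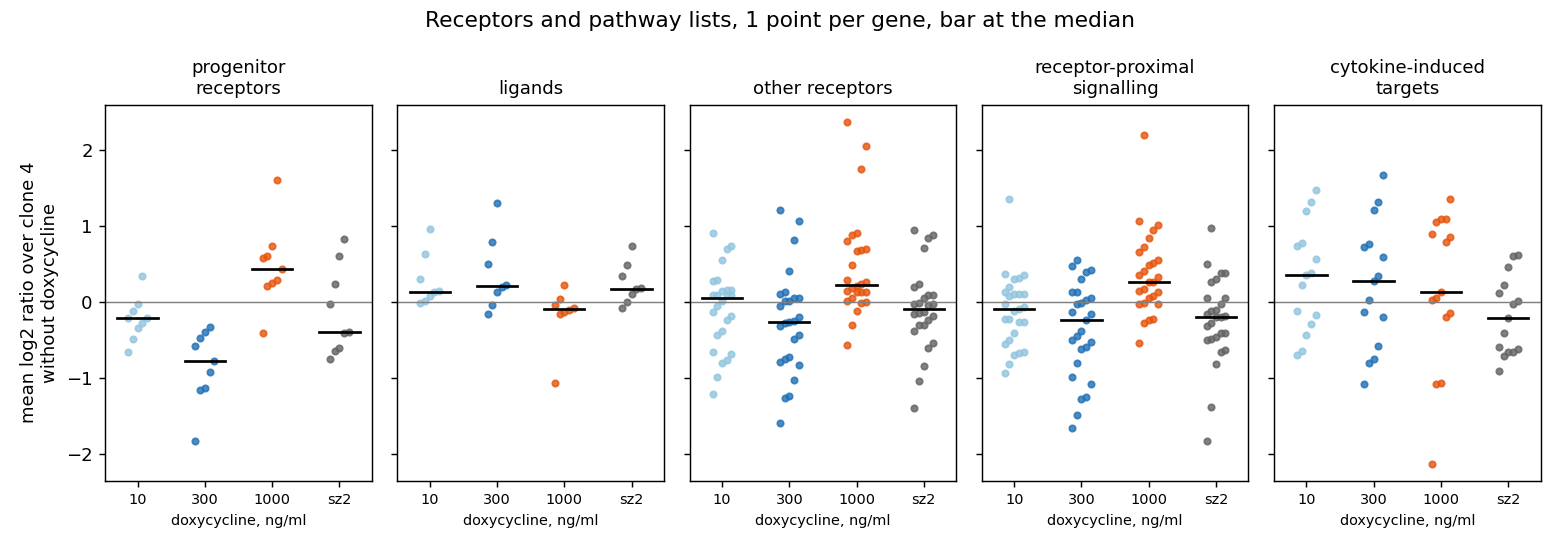
Mean log2 ratio over clone 4 without doxycycline (y axis) of each measured gene in the receptor group and the 4 pathway lists, by comparison (x axis, doxycycline in ng/ml, sz2 for Pax5sz2). Points are genes, each the mean of 2 arrays, and black bars the list medians, which for the progenitor receptors are -0.21, -0.77, 0.44 and -0.39.

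Markers of other blood cells were read from lists of 5 to 11 genes. Their counts are to be set against 2.36% of all features lower and 1.32% higher at 300 ng/ml. At 1000 ng/ml 1.94% of all features were higher and 0.635% lower. The shares at 10 ng/ml were 0.605% higher and 1.27% lower, and in Pax5sz2 2.34% higher and 2.82% lower. Of 11 myeloid markers, Csf1r among them, 10 were measured: 4 were past the size and lower at 300 ng/ml and 4 higher at 1000 ng/ml, with 0 on the other side in each, 1 lower at 10 ng/ml and 2 lower in Pax5sz2. Their summed log2 level was 12.7 to 12.77 at 300 ng/ml, against 15.12 to 15.27 in clone 4 without doxycycline. In the 1000 ng/ml RNA it was 15.12 to 15.39, against 11.66 to 11.97, and 6 of the 10 were dim in the control on both arrays. Of 5 dendritic cell markers, Flt3 among them, 3 were lower at 300 ng/ml, 2 higher at 1000 ng/ml, 1 lower at 10 ng/ml and 1 higher in Pax5sz2. Of 6 mast cell and basophil markers, Kit among them, 2 were lower at 300 ng/ml and 2 higher at 1000 ng/ml. Of 10 B cell precursor markers, Il7r among them, 1 was higher at 300 ng/ml, 3 were lower at 1000 ng/ml, and 2 were higher and 2 lower in Pax5sz2. Of 6 T lineage markers 1 passed the size, higher in Pax5sz2. Of 6 stem and multipotent progenitor markers 4 were measured and 1 passed, Flt3 itself. The part of these cells in the receptor ratios was not tested.

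The genes whose ratios over the 4 comparisons lay nearest to those of the receptors past the size were found among 14962 named features. Nearest to Flt3 were Pcbd1, with means of -0.07 with 10 ng/ml, -1.07 with 300 ng/ml, 1.67 with 1000 ng/ml and 0.03 in Pax5sz2 (root mean square distance 0.069), and Cd5, a T and B-1 cell surface protein (distance 0.14). Nearest to Csf2rb were Fbp1, the gluconeogenic fructose bisphosphatase, with means of -0.71, -1.07 and 0.67 at 10, 300 and 1000 ng/ml and -0.62 in Pax5sz2 (distance 0.083), and Adcy6, an adenylate cyclase (distance 0.10).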

How the data were processed

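RNA from 4 treated or rtTA-only cultures was compared with RNA labelled as clone 4 without doxycycline on 8 arrays. The authors deposited scanner files with intensity values, per the file headers: mean spot, median local background and processed signals from Agilent Feature Extraction 10.5.1.1. The same files give the log10 ratio of the processed Cy5 and Cy3 signals, per the file headers. The deposited series matrix holds that log10 ratio turned to named RNA over control, to within 5e-06. Per the file headers, probe positions are on mm8.

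Spots were corrected with normexp (offset 50), normalized by loess within arrays and turned to log2 ratios from the deposited intensity values, with R 4.3.3, limma 3.58.1 and the package data.table (1.17.8). Channel levels were then quantile-scaled on average intensity (Aquantile). Outlier spots, 37 to 295 per array, were left out, and no spot (0) was saturated. A gene was read from its brightest probe. Both arrays of a comparison were averaged and count as 1 sample. Tests were limma lmFit and eBayes, two-sided. Alternatives were median centring, processed signals, the series matrix, offset 0, the median over probes, no filter, another eBayes setting, the 1000 ng/ml pair turned or left out, and 1 array left out. The steps were checked on simulated data. Figures used Python 3.11.15 with matplotlib 3.10.9.

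Members and lists were chosen with earlier results of these data known. From each pathway list and comparison, up to 4 genes past the size with the largest ratio are named, and for each receptor past the size the 2 nearest features. Other genes are said to be chosen after their values were seen. A gene that this rule names is not reported here. The lists, of textbook genes, were 4 pathway and 7 marker lists.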

Additional observations from a re-analysis of the deposited data

Results flagged for a closer look

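For 7 of the 9 measured receptors, both arrays of the 300 ng/ml RNA lay on one side of clone 4 without doxycycline and both arrays of the RNA labelled 1000 ng/ml on the other. The same held for 7186 of all 19986 tested features, or 36%. With median centring in place of loess it held for 2 of the 9 receptors and for 8.85% of all features. The mean log2 ratios at 300 and 1000 ng/ml were -0.92 and 0.74 for Il2rg, -0.32 and 0.29 for Crlf2, -1.16 and 1.60 for Flt3, and -0.77 and 0.25 for Kit. They were -0.57 and 0.58 for Csf1r, -0.39 and 0.44 for Il3ra, and -1.13 and 0.61 for Csf2rb. The difference itself was not tested, and the 2 doses share the control RNA. If the 1000 ng/ml pair is turned, all 7 lie on the same side at both doses, and Il7r, which was below 0 in both as labelled, does not. Dose, batch and direction cannot be told apart for this pair.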

How the results depend on the processing

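No paired analysis was possible because the 2 arrays of a comparison differ in dye orientation only and their numbers were given in accession order. At 300 ng/ml, where 1 receptor (Csf2rb) passed the size, median centring gave 2 (Il7r and Flt3), and the scanner's processed signals, the series matrix and the median over all probes gave 0. Leaving out 1 array gave between 1 and 4 (Il7r, Flt3, Csf2ra and Csf2rb without the array with the named RNA in Cy3). At 1000 ng/ml, where 1 (Flt3) passed, the processed signals, the series matrix and normexp with offset 0 gave 2 (Flt3 and Csf1r), and turning the pair made the 1 call lower, with the Flt3 mean at -1.60. In Pax5sz2, leaving out the array with the named RNA in Cy3 gave 1 (Csf2ra), against 0 to 1 over the arrays left out. At 10 ng/ml the count was 0 under the 8 alternatives run, and the tests over doses called 0 receptors under the 9 run for each. Of 261 single-gene values, 206 stayed within the SD of the arrays or kept their call, 54 moved and 1 reversed. Signal over background limits Csf1r and Csf3r, and with 2 arrays and 1 RNA per comparison the spread between cultures is unknown.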
